A study of Rattus norvegicus with 70 samples.

Results

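The libraries described here came from rats that received no liver initiator, only its vehicle, and then the tumour promoter phenobarbital. They were chosen by their labels: 5 libraries of liver DNA taken at partial hepatectomy and 5 taken at terminal euthanasia, 10 of the 70 libraries of the study, paired by the replicate number 1 to 5 in their titles. The outbred rats (strain Crj:CD(SD)IGS) were given 0.5% methylcellulose, were left for 2 weeks, and then drank water with 500 ppm phenobarbital. Partial hepatectomy followed 1 week of phenobarbital, and euthanasia followed 6 weeks of it. The labels state that the hepatectomy was performed on every animal and that DNA came from 5 livers per group, but they do not say that libraries with the same number came from the same rat. Set beside these are: a water control given the vehicle and then plain water (10 libraries), and 5 conditions given an initiator and then phenobarbital (50 libraries). One condition each had received 3 mg/kg diethylnitrosamine (DEN), 30 mg/kg DEN, 1000 mg/kg acetaminophen, 100 mg/kg methapyrilene or 45 mg/kg thioacetamide. Age was not in the labels. Between the times the liver had regrown after surgery, the rats were older and phenobarbital had gone on for longer, and these cannot be told apart.

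Partial hepatectomy removes part of the liver, and the remaining hepatocytes, normally quiescent, re-enter the cell cycle and restore the mass of the organ. Growth factors such as Hgf and Egf family members, interleukin 6 signalling and immediate early genes such as Myc are known to take part. Phenobarbital acts in hepatocytes through the receptor CAR (gene Nr1i3), induces Cyp2b enzymes and promotes the outgrowth of initiated cells. DNA methylation lies mostly on cytosines followed by guanine (CG), must be copied onto the new strand at each cell division, and is low at many CG-rich transcript starts.

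Methylated fragments were captured with a methyl-binding protein and sequenced, and each library had 1 deposited signal for each of 17174 regions of 5625 bp assigned to transcripts. The signal is the number of reads in a region, scaled by the authors to the same total in every library, so it rises both with methylation and with the number of CG sites in a region. In bulk liver DNA, fewer cells with a methylated region and less methylation per cell cannot be told apart. Regions with a signal of at least 10 in at least 5 of the 10 libraries were tested, 14478 in all. The sequence around the transcript start is shown for 4 genes whose regions carry the results below. Wt1 and Pptc7 were the regions that differed between the times, C4bpa is the one with the tightest level after regrowth among the regions described, and Fam111a is the one whose level differed most between replicate numbers among regions above the median signal. Each run holds 250 bases before and 50 after the start on the gene's strand, from RefSeq for the build GRCr8, with every CG in capitals.
Wt1: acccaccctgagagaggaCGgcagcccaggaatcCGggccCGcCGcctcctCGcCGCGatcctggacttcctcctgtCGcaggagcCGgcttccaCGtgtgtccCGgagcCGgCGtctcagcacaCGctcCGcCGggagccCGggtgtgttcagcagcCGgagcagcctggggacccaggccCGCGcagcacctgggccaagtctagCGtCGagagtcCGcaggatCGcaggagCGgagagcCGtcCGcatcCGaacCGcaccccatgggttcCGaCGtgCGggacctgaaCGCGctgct
Pptc7: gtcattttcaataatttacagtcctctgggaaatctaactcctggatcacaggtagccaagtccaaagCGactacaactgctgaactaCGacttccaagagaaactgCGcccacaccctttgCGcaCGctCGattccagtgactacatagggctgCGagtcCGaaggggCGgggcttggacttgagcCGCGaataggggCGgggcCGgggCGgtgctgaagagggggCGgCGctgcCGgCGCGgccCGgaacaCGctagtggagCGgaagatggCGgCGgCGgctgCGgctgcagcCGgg
C4bpa: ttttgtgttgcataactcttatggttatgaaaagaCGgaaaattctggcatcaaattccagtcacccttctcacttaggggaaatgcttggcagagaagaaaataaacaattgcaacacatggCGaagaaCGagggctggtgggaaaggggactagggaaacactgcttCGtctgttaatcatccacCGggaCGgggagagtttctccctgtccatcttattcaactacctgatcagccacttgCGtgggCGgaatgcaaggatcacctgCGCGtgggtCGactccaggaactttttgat
Fam111a: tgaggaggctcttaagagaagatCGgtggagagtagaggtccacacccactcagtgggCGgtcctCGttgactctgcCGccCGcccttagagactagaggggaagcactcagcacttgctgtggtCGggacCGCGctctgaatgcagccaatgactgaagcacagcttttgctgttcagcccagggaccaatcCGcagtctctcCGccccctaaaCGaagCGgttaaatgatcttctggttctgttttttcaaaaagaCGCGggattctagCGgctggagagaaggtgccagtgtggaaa

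The Wt1 run (chr3:112021759-112022058, plus strand) holds 34 CG, and 7.27% of the 27457 promoters of this length in the table hold as many. The Pptc7 run (chr12:39949052-39949351, minus strand) holds 27, the Fam111a run (chr1:219065389-219065688, plus strand) 15 and the C4bpa run (chr13:44663422-44663721, minus strand) 11. At least 1 CG, a motif that reads the same on both strands, was in 94.8% of the promoters. Genes were matched by symbol, and 77.7% of the tested regions had a promoter in the table. The region coordinates given below are those of the deposited tables, for which no source used here names a build, and they cannot be set against the promoter coordinates.

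Scaling totals of the 10 libraries ran from 42.1 M to 53.2 M, of which 0.933 M to 1.48 M reads fell in the regions, and the median region had a signal of 47.7 to 54.2. One library stood apart. In replicate 5 at terminal euthanasia only 0.739% of the regions were without a read, against 2.53% to 4.79% in the 9 others, and its 90th percentile of signal was 8.0 times its 10th, against 29.3 to 72.3 times. Its reads were thus spread more evenly over the regions, and log2 differences given below "without replicate 5" leave out this pair. The ratio of percentiles was lower at terminal euthanasia in 5 of 5 pairs, by a mean of 14.1 (exact paired permutation test, two-sided, p = 0.0625, the smallest that 5 pairs allow).

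After regrowth, 2 regions had gained signal and none had lost it beyond the spread within pairs pooled over all 7 conditions. They were the regions of Pptc7, a protein phosphatase of mitochondria, and of Wt1, a zinc finger transcription factor of kidney and gonad development that is also a tumour suppressor. The 2 calls are 0.0138% of the tested regions (limma, adjusted p under 0.05), and 0% were called lower. At an unadjusted p under 0.05, 638 regions (4.41%) were higher and 373 (2.58%) were lower. Both called regions lie in the lower part of the signal range, below the median of the tested regions, and they are named because they were called, after their values were seen.

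The signal of Pptc7 (chr12:35482546-35488171, minus strand) at partial hepatectomy was 28.4, 11.1, 23.3, 45.8 and 27.3 in replicates 1 to 5. At terminal euthanasia it was 71.4, 51.1, 43.6, 68 and 68.7. Every pair was higher after regrowth, and the groups overlapped only in that the lowest terminal library lay just under the highest hepatectomy library. The mean went from 27.2 ± 12.5 (SD, n = 5) to 60.6 ± 12.4 (SD, n = 5), a log2 difference of 1.23 (SE 0.23, adjusted p = 0.00772). The water control held 52.5 ± 12.3 (SD, n = 5) at hepatectomy and 46.5 ± 14.9 (SD, n = 5) at the end, so that the phenobarbital libraries had the lower mean at the first time and the higher mean at the second.

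For Wt1 (chr3:90525204-90530829, plus strand) the hepatectomy signals were 9.48, 46.7, 7.42, 4.36 and 13.2. The terminal signals were 39.7, 35.7, 37.5, 43.8 and 80.1. Hepatectomy replicates 1, 3, 4 and 5 were far below every terminal library, and replicate 2 was the exception, being the only one of the 5 pairs in which the signal was lower at the end. The mean rose from 16.2 ± 17.3 (SD, n = 5) to 47.3 ± 18.6 (SD, n = 5), and the log2 difference was 1.87 (SE 0.35, adjusted p = 0.00772). This SE comes from the pooled spread, and the log2 differences of the 5 pairs themselves ran from -0.38 to 3.06. The terminal signals of Wt1 alone met the filter, and hepatectomy replicates 1, 3 and 4 were under its limit. The difference and the call of Wt1 are thus not independent of the filter. With no filter the log2 difference was the same, and Wt1 was not called (adjusted p = 0.0512). In the water control the mean was 34.6 ± 15.6 (SD, n = 5) and then 23.7 ± 7.27 (SD, n = 5). Without replicate 5, which includes the evenly spread library, the log2 differences were nearly as large at 1.21 for Pptc7 and 1.71 for Wt1, but the adjusted p became 0.138 and 0.32 and no region was called. Leaving out replicate 1 also ended both calls (adjusted p = 0.0643 for each) and gave 1 call in the lower direction, Samd12, replicate 2 ended that of Pptc7 (adjusted p = 0.257), and replicates 3 and 4 ended that of Wt1 (adjusted p = 0.173 and 0.345). Without the pairing in the fit, Pptc7 was still called (adjusted p = 0.0156) and Wt1 was not (adjusted p = 0.106).

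**Figure D1:**
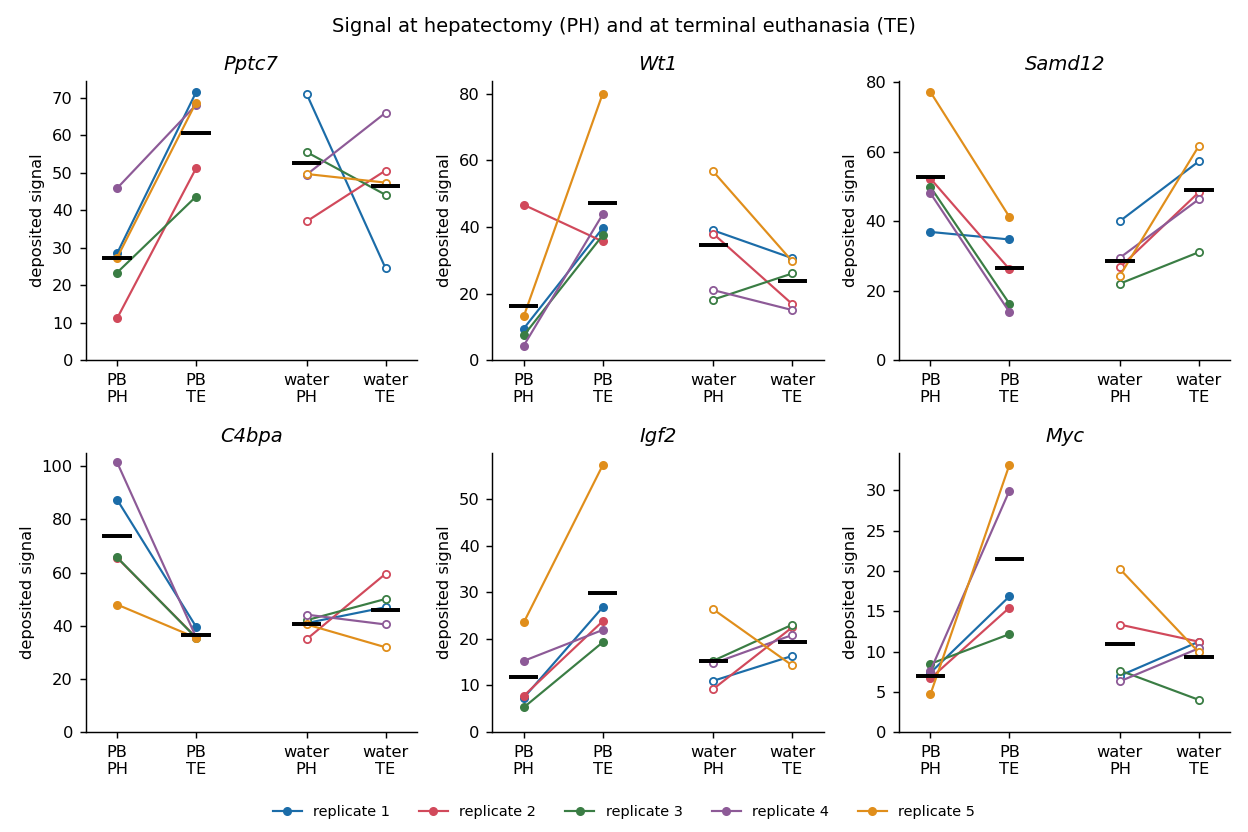
Deposited signal (vertical axis, scaled reads per region, from 0) of 6 regions at partial hepatectomy (PH) and terminal euthanasia (TE), with filled points for phenobarbital (PB) and open points for the water control. Lines join libraries of the same replicate number and black bars are means of 5 libraries: Pptc7 and Igf2 are higher at TE in all 5 phenobarbital pairs, whereas C4bpa lies between 35.5 and 39.7 at TE.

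In 92 regions (0.635% of those tested) every terminal library was above every hepatectomy library, and in 33 regions (0.228%) every terminal library was below. All 5 pairs were higher at the end in 632 regions (4.37%) and lower in 486 (3.36%). C4bpa, which encodes a plasma inhibitor of complement made by the liver, was one of the non-overlapping regions (chr13:43587440-43593065, minus strand). Its hepatectomy signals were 87.4, 65.6, 65.7, 101 and 48, and its terminal signals were 39.7, 35.7, 35.5, 35.7 and 35.5. The terminal libraries were nearly equal and all lay below the lowest hepatectomy library. The log2 difference was -0.95 (SE 0.24), and it did not pass the test (adjusted p = 0.31). In the water control the means were 40.5 ± 3.44 (SD, n = 5) and 45.8 ± 10.4 (SD, n = 5), near the terminal level of the phenobarbital group. Rdh10, the enzyme that oxidises retinol to retinal, differed the other way without overlap, from 5.30 to 17.8 at hepatectomy up to 24.2 to 41.2 at the end (log2 difference 1.39, SE 0.33, adjusted p = 0.249). Its terminal signals alone met the filter of 10, and its lowest hepatectomy signal was under it. Its lack of overlap is thus not independent of the filter. C4bpa and Rdh10 fall outside the rule for named genes and were chosen after their values were seen.

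Among the regions above the median signal, 8 per direction had the smallest p with all 5 pairs agreeing in sign, and none of the 16 passed the test. The 8 with higher signal at the end had log2 differences of 0.53 to 0.77. They were Fam110a, Cygb (cytoglobin, a globin of stellate cells), Septin9 (a cytoskeletal GTPase), the histone gene Hist1h2bn, Mmp12 (a macrophage metalloelastase), Mtm1 (a phosphoinositide phosphatase), Tpm2 (a tropomyosin) and Prickle1 (a planar polarity protein). The list of stellate markers was split, with 11 positive and 13 negative differences, and that of macrophage markers had 5 positive and 11 negative. Fam110a had the smallest p of these, with 82.2, 78.9, 62.5, 57.8 and 44.2 at hepatectomy and 103, 107, 114, 118 and 85.8 at the end. Every terminal library was above every hepatectomy library, with a log2 difference of 0.71 (SE 0.17, adjusted p = 0.294). Fam110a, Hist1h2bn and Mtm1 were the members of the 8 whose groups did not overlap. In the mean of the 5 initiated conditions the 8 had differences of 0.04 (Mtm1) to 0.67 (Septin9), with 0.61 for Fam110a. Under water they had -0.17 (Mmp12) to 0.84 (Hist1h2bn).

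The 8 regions with lower signal at the end had log2 differences of -0.72 to -0.51. They were Olr1332 (an olfactory receptor), Etv3 (an ETS family repressor), Srp72 (a subunit of the signal recognition particle), Pygm (muscle glycogen phosphorylase), Mvd (an enzyme of cholesterol synthesis), Rag1ap1 (a sugar transporter), Tmprss11c (a transmembrane protease) and Slc27a6 (a fatty acid transporter). Olr1332 held 108, 141, 96.4, 131 and 104 at hepatectomy and 93.2, 86.8, 60.8, 86.5 and 37.8 at the end, again without overlap. Its log2 difference was -0.72 (SE 0.20, adjusted p = 0.384), and -0.54 without replicate 5.

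The difference between the times depended on how much signal a region had. When the tested regions were ordered by their mean over the 10 libraries and split into 4 signal groups of equal size, the median log2 difference was 0.25 in the lowest group, 0.07 in group 2, -0.05 in group 3 and -0.16 in the highest. Replicate 5 had the widest span, from 0.76 in the lowest group to -0.71 in the highest. Replicate 3 went the same way with a smaller span (0.36 to -0.05), replicates 1 and 2 stayed between -0.13 and 0.06, and replicate 4 was highest in the highest group (0.08 to 0.16). Without replicate 5 the medians were 0.12, 0.07, 0.02 and -0.02. Of the 638 regions higher at an unadjusted p under 0.05, 356 were in the lowest group and 6 in the highest, whereas 144 of the 373 lower regions were in the highest group and 23 in the lowest. Without replicate 5 the same counts were 194 and 11 for the higher regions and 13 and 49 for the lower ones. The part of the evenly spread library in a given region was not tested beyond these values.

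**Figure D2:**
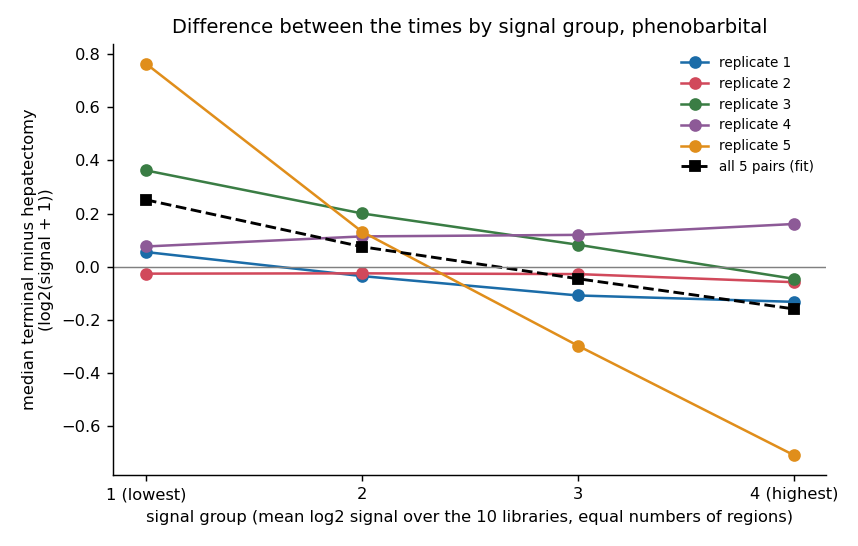
Median terminal minus hepatectomy difference on the log2(signal + 1) scale (vertical axis) in 4 groups of the tested regions by mean signal (horizontal axis), with 1 coloured line per phenobarbital pair and the fit over 5 pairs dashed in black. Replicate 5 falls from 0.76 to -0.71, while replicates 1, 2 and 4 stay within -0.13 and 0.16.

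The genes known for liver regrowth were taken next. Of 60 tested growth factor and receptor genes, 26 had a positive and 34 a negative difference, 2 were higher and 4 lower at an unadjusted p under 0.05, and none passed the adjusted test. Over all 13975 tested genes the corresponding shares were 6649 positive and 7326 negative, with 623 (4.46%) higher and 367 lower at an unadjusted p. Of all tested regions, 2.58% were lower at that threshold. The list's median difference of -0.02 was that of all genes, also -0.02. Hgf, the hepatocyte mitogen of the liver's stellate cells, held 53.8 ± 21.2 (SD, n = 5) and then 65.7 ± 9.89 (SD, n = 5) with a log2 difference of 0.38. Its receptor Met held 175 ± 29.3 and then 163 ± 25.1 (SD, n = 5 each), a difference of -0.10 (-0.06 without replicate 5). Egfr (-0.37, unadjusted p = 0.0473), Nrg4 (-0.46) and Fgfr2 (0.55), which are receptors or ligands of the Egf and Fgf systems, did not pass either, with adjusted p of 0.705, 0.628 and 0.629. Without replicate 5 they had -0.22, -0.29 and 0.48.

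Igf2, the imprinted fetal growth factor, belongs to the list of imprinted genes. Its hepatectomy signals were 7.37, 7.78, 5.30, 15.3 and 23.5, and its terminal signals were 26.8, 23.8, 19.3, 21.9 and 57.2. All 5 pairs were higher at the end, although the groups overlapped because hepatectomy replicate 5 was already high. The terminal signals of Igf2 alone met the filter, and its lowest hepatectomy signal was under the limit. Its difference is thus not independent of the filter. The log2 difference was 1.33 (SE 0.37, adjusted p = 0.365) and 1.35 without replicate 5, while the water control had 0.38. A pair of further Igf2 regions that partly overlap it were under the filter, with means of 3.50 and 6.93 at hepatectomy and 17.3 and 21.4 at the end. H19, the neighbouring imprinted RNA, was among the regions with the most signal, at 526 ± 112 and then 478 ± 117 (SD, n = 5 each), a log2 difference of -0.15 (-0.06 without replicate 5). The 40 tested imprinted genes were 16 with positive and 24 with negative differences, and their median was -0.10 (-0.03 without replicate 5).

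Myc, the immediate early transcription factor, was low in every library but did not overlap between the times. It held 7.37, 6.67, 8.48, 7.63 and 4.70 at hepatectomy and 16.9, 15.5, 12.2, 30.0 and 33.2 at the end. The log2 difference was 1.42 (SE 0.45, unadjusted p = 0.00215, adjusted p = 0.401), and 1.13 without replicate 5. All 5 hepatectomy signals were under the filter of 10 and all 5 terminal signals were above it. Myc was thus tested only because of its terminal signals, and its lack of overlap and its p-value are not independent of the filter. In the water control the means were 10.9 ± 5.92 and 9.36 ± 3.04 (SD, n = 5 each). The interleukin 6 and immediate early list, Myc included, was split, 13 positive and 19 negative of 32 in all. At an unadjusted p under 0.05, 1 was higher, Myc itself, and 1 was lower. The lower one was Osmr, the oncostatin M receptor, at -0.49 (unadjusted p = 0.00569, adjusted p = 0.516). Fos (0.09), Jun (-0.09), Stat3 (-0.10) and Socs3 (-0.35) had adjusted p of 0.709 or more. Without replicate 5 they had -0.32, -0.14, -0.20 and -0.24, so that the sign of Fos changed.

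Of 45 cell cycle and replication genes, 22 had positive and 23 negative differences with a median of 0.00. At an unadjusted p under 0.05, 3 (6.67%) were higher, near the 4.46% of all genes, and 0 were lower. These were Ccnb2 (0.78), a cyclin of mitosis, Kif11 (0.62), a spindle motor, and Cdc25c (0.51), the phosphatase that starts mitosis. Without replicate 5 they had 0.70, 0.32 and 0.49. Ccnb2 was 30.5, 14.4, 24.4, 26.2 and 32 at hepatectomy and 26.8, 45.2, 44.6, 39.2 and 69.8 at the end, higher in 4 of 5 pairs, with an adjusted p of 0.479. Pcna, the replication clamp, held 54.5 ± 4.32 and then 51.3 ± 10.9 (SD, n = 5 each). The cell cycle inhibitors Cdkn1a and Cdkn1c had log2 differences of 0.18 and -0.26 (0.26 and -0.11 without replicate 5). Ccnd1, the cyclin of the G1 phase, was under the filter, with means of 1.08 and 4.57.

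The phenobarbital response was measured by 31 tested genes of 50 listed, of which 16 had positive and 15 negative differences, with a median of 0.01. The targets Cyp2b1 and Cyp2b2 were under the filter at both times, with means of 5.62 and 1.84 at hepatectomy and 3.94 and 2.84 at the end. Nr1i3, the receptor through which phenobarbital acts, had a log2 difference of 0.23, and 0.09 without replicate 5. For its relative Nr1i2 the difference was -0.32, and -0.09 without replicate 5. Gadd45b, a stress gene known to be induced through CAR, was higher in all 5 pairs, from 40.3 ± 10.2 to 61.1 ± 15.5 (SD, n = 5 each), with a log2 difference of 0.59 and 0.58 without replicate 5. Abcc3, an export pump of conjugates, was lower in all 5 pairs, from 114 ± 18.7 to 81.8 ± 13.7 (SD, n = 5 each), with a log2 difference of -0.48 and -0.51 without replicate 5. Gadd45b and Abcc3 had adjusted p of 0.629 and 0.575.

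Markers of hepatocytes and of the other liver cells showed no region past the test. Of 44 hepatocyte genes, 18 had positive and 26 negative differences (median -0.08). At an unadjusted p under 0.05, 1 (2.27%, against 4.46% of all genes) was higher and 0 were lower. It was Abcb11, higher in all 5 pairs (log2 difference 0.46, adjusted p = 0.629, and 0.45 without replicate 5). Ppara (0.85, and 0.63 without replicate 5) and Tdo2 (0.66, and 0.45) were higher in 4 of 5 pairs. Alb, which encodes albumin, was lower in all 5 pairs, from 63.7 ± 9.93 to 48.7 ± 13.7 (SD, n = 5 each; log2 difference -0.41, adjusted p = 0.732). Afp, its fetal counterpart, was 86.9 at both times. The medians were 0.00 for the fetal, biliary and progenitor list, 0.00 for endothelial, -0.03 for stellate, -0.06 for macrophage and -0.11 for lymphocyte markers. Of 24 stellate genes, 11 had positive and 13 negative differences. At an unadjusted p under 0.05, 3 of them (12.5%) were higher, Cygb and Pdgfrb included, and 1 was lower. Of the 23 lymphocyte genes, 20 were lower, among them Cd3e (-0.36, and -0.23 without replicate 5), but their median per pair was -0.10, -0.12, -0.03, 0.15 and -0.61, and without replicate 5 it was 0.01. The endothelial and macrophage lists also had their lowest pair in replicate 5, at -0.66 and -0.49. These are levels of methylated DNA and do not count cells.

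The developmental homeobox list, which includes the Hox genes that pattern the embryo and other families kept silent in adult liver, had the median farthest from 0 of the 15 lists. Of 54 tested genes, 41 had a positive and 13 a negative difference with a median of 0.30, and 11 (20.4%) were higher at an unadjusted p against 4.46% of all genes and 9.83% of the lowest signal group. None passed the adjusted test. The median per pair was 0.17, -0.13, 0.12, 0.25 and 1.22, so that replicate 5 was far above the other pairs and replicate 2 was below 0. Without replicate 5 it was 0.14, against 0.03 for all genes and 0.12 for the lowest signal group, whose median with all pairs was 0.25. Hoxa2 held 11.6, 6.67, 1.06, 2.18 and 6.58 at hepatectomy and 9.91, 11.9, 32.4, 12.7 and 19.5 at the end, with a log2 difference of 1.62 in the phenobarbital group and 1.63 in the water control. It met the filter of 10 only through hepatectomy replicate 1 and terminal replicates 2 to 5. Its difference under phenobarbital is thus not independent of the filter. Hoxc5 had a difference of 0.98, and 0.77 in the water control. The list's median over the water pairs was 0.02, and over the mean of the 5 initiated conditions it was 0.24. In water pair 5 the hepatectomy library had evenly spread reads (0.611% of regions without a read). Hoxa2 and Hoxc5 are of low signal, at percentiles 0.68 and 24.2 of the tested regions. The signal of the list as a whole is not given here, so the lowest signal group is not a matched comparison. The part of the evenly spread libraries in the list's differences was not tested beyond the phenobarbital values without replicate 5.

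**Figure D3:**
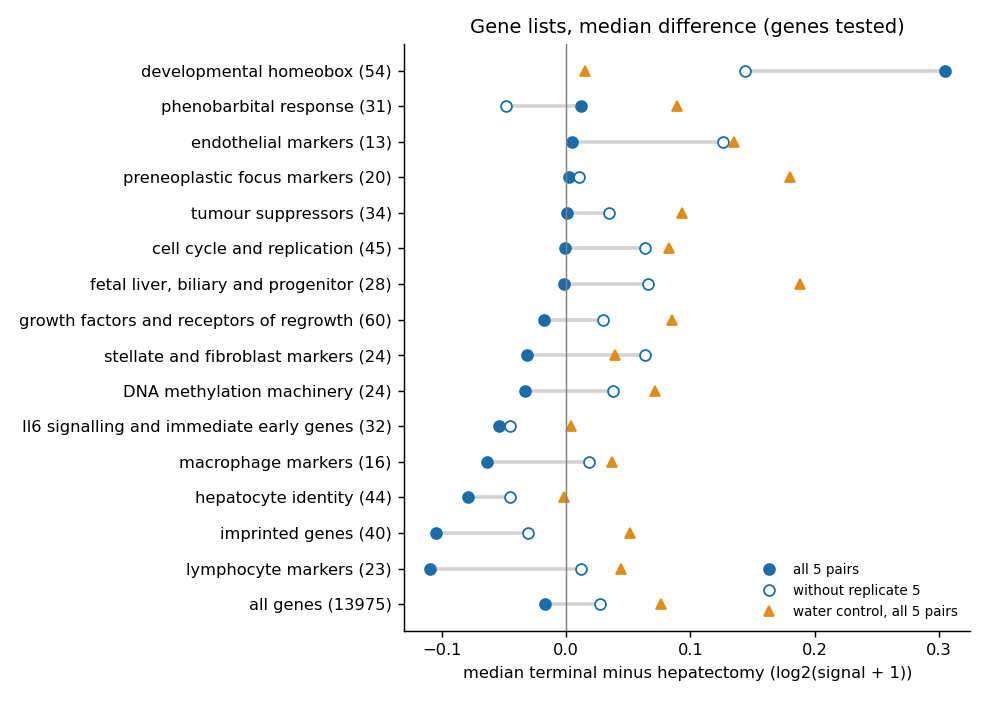
Median terminal minus hepatectomy difference on the log2(signal + 1) scale (horizontal axis) for all genes and 15 gene lists (vertical axis, with the number of genes tested): filled circles for all 5 phenobarbital pairs, open circles without replicate 5, triangles for the water control. The homeobox list lies at 0.30 and moves to 0.14 without replicate 5, and the lymphocyte list moves from -0.11 to 0.01.

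Among 34 tumour suppressors, 17 differences were positive and 17 negative, and Wt1 was the called member. Dkk2, a Wnt antagonist, held 22.3 ± 4.88 and then 34.6 ± 11.9 (SD, n = 5 each), a log2 difference of 0.55. The 20 markers of preneoplastic foci had 10 differences in each direction, and Gstp1, the placental glutathione transferase that marks such foci in rat liver, had 0.32 with an adjusted p of 0.811 (0.19 without replicate 5). Of 24 genes of the methylation machinery, 10 were positive and 14 negative. The maintenance methyltransferase Dnmt1 (-0.15) and its partner Uhrf1 (-0.18), which together copy methylation at replication, had -0.11 and -0.02 without replicate 5. Tdg, a glycosylase of active demethylation, did not overlap between the times (15.8, 21.1, 18, 13.1 and 20.7, then 22.8, 26.2, 33.5, 27.7 and 29.8), with a log2 difference of 0.64 that did not pass the test (adjusted p = 0.732).

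The question of whether the difference under phenobarbital differs from that under plain water was put to an interaction test. The median interaction was -0.09 on the log2 scale, since the median difference between the times was -0.02 under phenobarbital and 0.08 under water. It was 0.01 without the pairs that hold an evenly spread library and -0.02 with median-ratio library factors. A single region passed, in the lower direction (0.00691% of those tested), and 0% passed in the higher direction. At an unadjusted p under 0.05, 500 regions (3.45%) were higher and 683 (4.72%) lower. This split turned over to 365 higher and 282 lower without the pairs that hold an evenly spread library, to 350 and 298 without phenobarbital replicate 5 and to 362 and 294 without water replicate 5. The called region was that of Samd12, a gene for a protein with a sterile alpha motif (chr7:90089750-90095375, minus strand). It too lies below the median signal and was named after its values were seen.

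Samd12 held 36.9, 52.2, 49.8, 48 and 77.1 at hepatectomy and 34.7, 26.2, 16.2, 13.8 and 41.2 at the end under phenobarbital. Under water it held 39.99, 26.7, 22, 29.4 and 24.3 and then 57.2, 48.3, 31, 46.3 and 61.6. All 5 phenobarbital pairs were lower after regrowth and all 5 water pairs were higher. The interaction was -1.80 on the log2 scale (SE 0.33, adjusted p = 0.00956), made up of -1.05 under phenobarbital (adjusted p = 0.132) and 0.75 under water (adjusted p = 0.943). Within the 5 initiated conditions the difference between the times was -0.35 (DEN at 3 mg/kg), -0.24 (DEN at 30 mg/kg), -0.15 (thioacetamide), 0.41 (methapyrilene) and 0.19 (acetaminophen). In the water control, replicate 5 at hepatectomy was another library with evenly spread reads (0.611% of regions without a read). Without the water pair 5 the interaction was -1.66 (adjusted p = 0.143), without the phenobarbital pair 3 it was -1.67 (adjusted p = 0.116), and without every pair that holds an evenly spread library it was -1.70 (adjusted p = 0.248). Without the pairing in the fit the call was also lost (adjusted p = 0.0558).

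Wt1 and Pptc7 had interactions of 2.34 (SE 0.50, adjusted p = 0.0624) and 1.44 (SE 0.32, adjusted p = 0.0859), so that neither passed. Their own differences under water were -0.47 and -0.21. Among regions above the median signal whose 5 phenobarbital pairs shared the sign of the interaction, the smallest p in the higher direction belonged to Zbtb32, RGD1562871, Pdgfrb (a receptor of stellate cells) and Mmp12, with interactions of 0.72 to 1.01. In the lower direction they belonged to Nop10, Calcr (the calcitonin receptor), LOC498933 and Olr1332, with interactions of -0.97 to -0.80. None of these 8 passed, with adjusted p of 0.477 to 0.519.

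Against the mean of the 5 initiated conditions, 0 regions were called in either direction (limma, 0% higher and 0% lower). At an unadjusted p under 0.05, 309 regions (2.13%) were higher and 440 (3.04%) lower, and without phenobarbital replicate 5 it was 237 higher and 207 lower. Wt1 had the smallest adjusted p, 0.258, for a difference of 1.77 between the conditions. Its change between the times was 0.21, -0.26, 0.24, -0.17 and 0.49 after DEN at 3 mg/kg, DEN at 30 mg/kg, thioacetamide, methapyrilene and acetaminophen, against 1.87 without initiator. Leaving out the phenobarbital pair 2, the pair in which Wt1 went down, brought Wt1 past the threshold. Pptc7 had 0.16, 0.21, 0.26, -0.16 and 0.73 in the same order, against 1.23. Taken one by one, the other conditions had 0 called regions under water and after thioacetamide and methapyrilene, 1 after each dose of DEN (0.00691%) and 3 after acetaminophen (0.0207%), all of them higher.

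Some regions kept a level that went with the replicate number through both times. An F test of the pair terms called 149 regions (1.03%), and 1800 (12.4%) had an unadjusted p under 0.05. In the water control the same test called 68 regions (0.47%), and 29 were called in both, which is 19.5% of the phenobarbital list and 42.6% of the water list. limma found no variation of the spread between regions beyond its trend with the signal, so these p-values use the trend's spread with no allowance for a region that is noisier than others of its level. In the called regions the SD between pair means had a median of 0.64 on the log2 scale, against 0.27 over all tested regions, and this follows from the choice of those regions.

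Fam111a, a protease that acts at replication forks, had the widest spread of pair means among the called regions above the median signal (chr1:215576910-215582535, plus strand). It held 27.4, 319, 89.0, 30.5 and 651 at hepatectomy and 37.7, 321, 91.2, 38 and 926 at the end. Each terminal library was close to the hepatectomy library with its number, and the numbers differed by over an order of magnitude. Under water the levels were 389, 396, 468, 381 and 78.0 and then 358, 294, 493, 406 and 31.9, with replicate 5 low at both times.

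The MHC class I gene RT1-N2 held 77.9, 18.9, 149, 75.3 and 79.9 at hepatectomy and 109, 11.9, 163, 106 and 81.2 at the end, with replicate 2 low both times. Of 42 tested regions of RT1 genes, which belong to the highly variable rat MHC, 8 (19.05%) were called. Of 522 regions of olfactory receptor genes it was 12 (2.30%), and of 34 regions of vomeronasal receptor genes it was 0. Genes of these families have close copies, and reads may have been split or shared between them. RT1-CE5 was at 1.06 in hepatectomy replicate 3 and 3.04 in terminal replicate 3, against 28.4 to 78.9 and 19.5 to 43.6 in the other libraries.

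Srp72 held 329, 127, 279, 397 and 105 at hepatectomy and 294, 64.2, 186, 382 and 42.3 at the end, and replicates 2 and 5 were low at both times. Recql, a DNA helicase, and Golt1b, a protein of Golgi transport, have overlapping regions on chromosome 4 and both stood out in replicate 1. Golt1b was 881 and then 709 in that replicate, against 198 to 259 and 149 to 276 in the others. Mrps34, of the mitochondrial ribosome, was highest in replicate 4 at both times (402 and 454, against 92.2 to 233 and 118 to 222 in the others). Rbm39, a splicing factor, was lowest in replicate 3 at both times (15.9 and 22.3), with 77.8 to 152 and 58.4 to 152 in the others.

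LOC685544, named after its values were seen, came near to an on and off pattern. It held 2.11, 65.6, 22.3, 74.2 and 1.88 at hepatectomy and 3.97, 42.8, 25.3 and 65.7 in terminal replicates 1 to 4. Terminal replicate 5 had no read there. Under water its replicates 2 and 3 were at 2.05 and 0.956 and later at no read and 1.00, against 25 to 38.9 and 35.9 to 56.2 in replicates 1, 4 and 5. Low and high replicates were thus the same at both times in each condition.

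**Figure D4:**
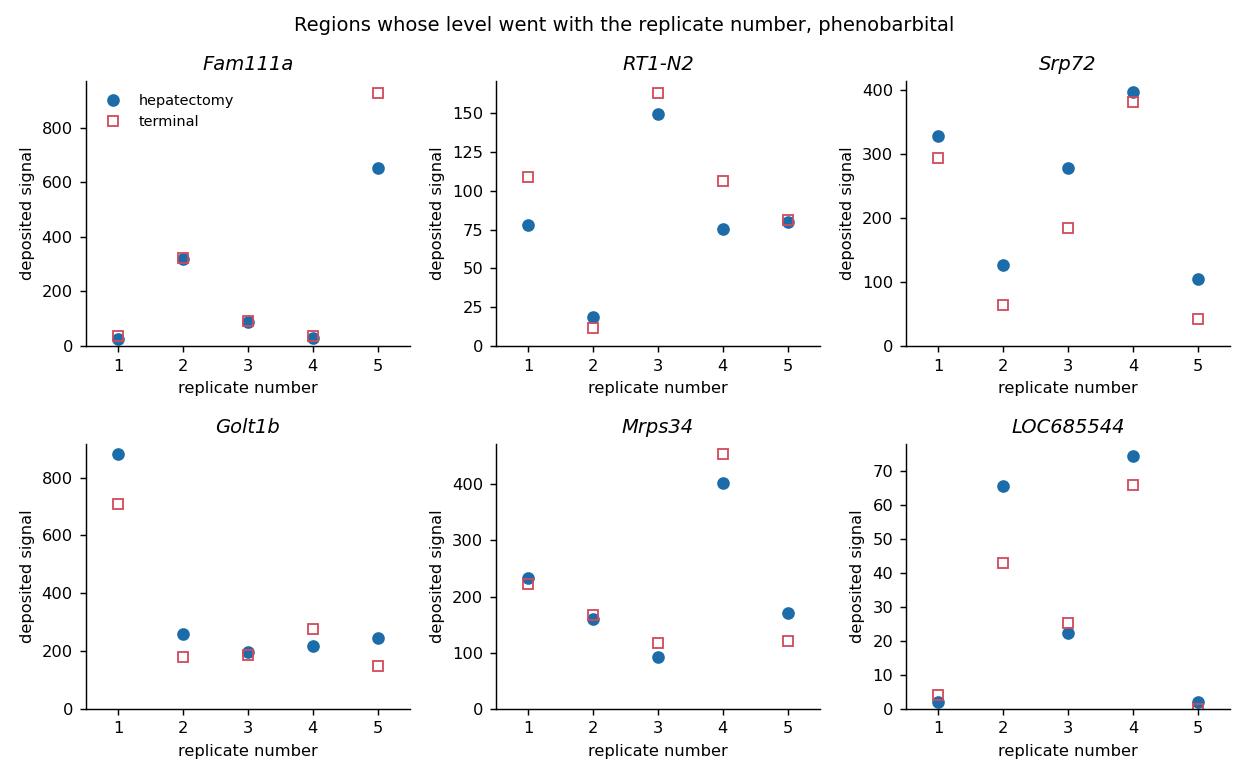
Deposited signal (vertical axis, from 0) of 6 regions in the phenobarbital libraries by replicate number (horizontal axis), with filled circles for hepatectomy and open squares for terminal euthanasia. In Fam111a the 2 libraries with a number lie close together, from 27.4 and 37.7 in replicate 1 to 651 and 926 in replicate 5.

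Across all tested regions the pairing was weak. The deviations of same-numbered libraries from their group means correlated at 0.32, 0.02, 0.12, 0.05 and 0.17 (Pearson's r across regions, which are not independent), a mean of 0.137. Libraries with different numbers had a mean of -0.035. Of the 120 ways to pair the 5 hepatectomy with the 5 terminal libraries, the labelled one gave the highest mean (exact permutation test, one-sided, p = 0.00833, the smallest it can give). Of the hepatectomy libraries 4 of 5, and of the terminal libraries 3 of 5, correlated best with the library of their own number. Neighbouring library numbers fall in 3 blocks, and the same-numbered pairs 1 to 4 had a mean of 0.129 against -0.018 for different numbers within a block.

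**Figure D5:**
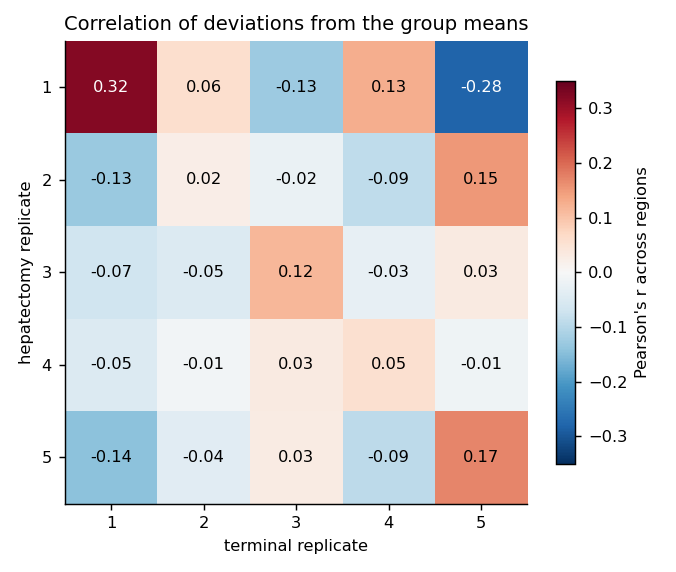
Pearson's r across the tested regions between the deviations of each hepatectomy library (rows) and each terminal library (columns) from their group means, phenobarbital. The diagonal, which joins same-numbered libraries, runs from 0.02 to 0.32, and its mean is 0.137 against -0.035 off the diagonal.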

How the data were processed

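Liver DNA enriched for methylated fragments (MethylMiner kit) was read on a SOLiD 4 sequencer, per the labels' protocols. The deposited tables give 1 signal per region and library. Within a library the values were whole multiples of 1 step (100% within a tolerance of 0.01), so the authors had scaled reads by 1 factor per library, 50 M divided by a scaling total. A region without a read carries 0.01. Aligner, build and counting method: not given in the sources used here.

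Signal was taken as log2(signal + 1). limma 3.58.1 in R 4.3.3, with a trend in the variance, was fitted to all 70 libraries with a term for each of the 35 condition-and-number pairs and 1 terminal minus hepatectomy difference per condition. Fold differences are on this scale, which understates those of low regions. Regions needed a signal of at least 10 in 5 of the 10 phenobarbital libraries. Benjamini-Hochberg adjusted p-values over all 14478 tested regions were held to 0.05. P-values measure the spread between the libraries fitted, all 70 for the differences between the times, and this spread may be partly technical.

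Simulated data were drawn with 1 normal spread per region, equal in all libraries, as the fit assumes. In these data the fit found 77.6% of regions shifted by 1 on the log2 scale and 96.1% of those shifted by 2. Of its calls there, 7.45% were unchanged regions. These shares hold for that setting only, and how they change with an evenly spread library, such as terminal replicate 5, was not tested. The labels' numbers pair the libraries in the fit. Same-numbered libraries correlated at over 0.1 in 3 of 5 pairs only, although the labelled pairing had the highest mean of the 120 possible. Whether the numbers mark animals was not tested, and the labels do not say so.

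Named genes were the called regions above the median signal or, with fewer than 5, those with the smallest p there and the same sign in 5 pairs, 4 per direction for the interactions, up to 3 members of each of 15 gene lists, 32 fixed genes and the 10 widest shared levels. The members and lists were chosen with earlier results of these data known. Ggt1 and Meg3 were not analysed here, and some genes that the rule names are not reported here. Lists were described by counts and medians without a test. Alternatives were another pseudocount (10), no filter, other scalings, no pairing and leaving out pairs. The deposited peak list was not used. No check of CG content over the regions was made, since only 77.7% had a promoter in the table.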

Additional observations from a re-analysis of the deposited data

Results flagged for a closer look

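In groups of 5, a library was marked when its gap to the nearest other exceeded Dixon's 95% limit for the range of the group, which chance does in about 1 in 20 groups. Many of the regions were named by these same values, so that rate does not hold for them. Recql, Golt1b, Znf503 and Snrk were named for a wide spread of pair means, and C4bpa after its values were seen. Over 98 named regions and both times, 17 values were marked. Of these, 7 belong to terminal replicate 5, the library with evenly spread reads: it was the highest for Wt1 (80.1), Kif11 (72.1), Sox17 (64.1), Igf2 (57.2) and Tdo2 (57.2), all regions of low signal, and the lowest for Phldb1 (51.5) and Nr1i2 (60.6). Hepatectomy replicate 1 was the highest for Recql (749), Golt1b (880.5), Snrk (169.6) and Nr1i2 (169.6), and terminal replicate 1 for Recql (611), Golt1b (709) and C4bpa (39.7, in a group whose other members lay within 35.5 and 35.7). Hepatectomy replicate 2 was the highest for Wt1 (46.7) and Flt1 (85.6), and terminal replicate 2 for Znf503 (221).

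The difference between the times for Samd12 under phenobarbital differed from that under water by -1.80 on the log2 scale in the interaction test, with all 5 pairs of one condition lower and all 5 of the other higher.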

How the results depend on the processing

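Depth limits the low regions most, where a few reads decide a value, and the spread of reads in terminal replicate 5 limits the comparison as a whole. Another pseudocount (10), the 10 phenobarbital libraries fitted alone and median-ratio library factors, a scaling chosen after seeing the data, each kept the 2 calls of Pptc7 and Wt1. As in the F test, the fit of the 10 libraries alone used the trend's spread. It made no allowance for a region that is noisier than others of its level. With no filter 1 region was called (Pptc7), with quantile normalization 0, and without pairs that hold an evenly spread library 0, as with the 10 libraries alone without replicate 5 (0, added after seeing the data). Leaving out each pair in turn gave 0 to 1 calls, which without replicate 1 was Samd12 in the lower direction. At an unadjusted p under 0.05 the split of 638 higher and 373 lower became 514 and 684 with quantile normalization, 637 and 671 with median-ratio factors, 464 and 444 without replicate 3 and 653 and 666 without replicate 4. For these losses of calls the cause was not tested.

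Without the replicate block, so with no pairing in the fit, 1 region was called between the times (Pptc7), and 0 regions were called in the interaction with water, where Samd12 had an adjusted p of 0.0558. The interaction with water gave 2 calls with no filter (Samd12 and Afg3l1) and 0 to 5 calls when single pairs were left out. Without the pairs that hold an evenly spread library it gave 1 call, which was RGD1562871 (1.65, adjusted p = 0.0392) in place of Samd12. Against the initiated conditions, leaving out pairs gave 0 to 1 calls (Wt1 without phenobarbital pair 2). The count of 149 regions with a shared level became 83 with no filter, 35 with quantile normalization and 41 to 133 with single pairs left out, the lowest without replicate 1. The mean correlation of same-numbered libraries was 0.0793 to 0.169 with single pairs left out.

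Of 100 named results, 9 changed sign in some alternative, and none of the 9 had been called. With quantile normalization these were Met (0.0578), Fos (-0.00209) and H19 (0.0954). Without the evenly spread pairs, and with the 10 libraries alone without replicate 5, they were Fos (-0.319), Tbx3 (0.0621), RT1-CE5 (0.0186) and LOC685544 (0.0201). Over single pairs left out the log2 differences ran from -0.319 to 0.349 for Fos, -0.269 to 0.083 for Jun, -0.211 to 0.0973 for Stat3, -0.137 to 0.206 for Afp, -0.307 to 0.0621 for Tbx3, -0.579 to 0.0186 for RT1-CE5 and -0.527 to 0.0201 for LOC685544. The planned fits with edgeR and DESeq2 were not run, because the placeholder for regions without a read keeps the values from being taken as counts.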
